A study of Homo sapiens with 8 samples.

Results

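Serine, one-carbon and asparagine synthesis was followed here through the transcripts of 10 enzyme genes, chosen by name, of the 36474 genes counted in LNCaP cells exposed to asporin (ASPN). All 10 passed the filter on low counts. Mitochondrial one-carbon enzymes made up 4 of them (SHMT2, MTHFD2, MTHFD1L and ALDH1L2). The other 6 were cytosolic: the serine synthesis enzymes PHGDH, PSAT1 and PSPH, the cytosolic one-carbon enzymes SHMT1 and MTHFD1, and the asparagine synthetase ASNS. LNCaP is an androgen-sensitive line derived from a prostate cancer metastasis, and ASPN is a small proteoglycan secreted by stromal cells. Before exposure the cells were kept for 6 to 12 h in medium lacking serum and calcium, and recombinant ASPN was then added at 100 ng/mL. RNA was sequenced at 0 h (2 libraries), 12 h (3 libraries) and 24 h (3 libraries). The labels name LNCaP as the line of all 8 libraries, give no genetic change and mark the 0 h libraries as ASPN-treated too. Buffer-only libraries at 12 h and 24 h were not analysed here, so ASPN and the time spent in starvation medium cannot be told apart in any comparison below.

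Cells make serine from a glycolytic intermediate in successive steps catalysed by PHGDH, PSAT1 and PSPH. Serine hydroxymethyltransferases (SHMT1 in the cytosol, SHMT2 in mitochondria) then split serine into glycine and a carbon unit carried on folate. In mitochondria MTHFD2 oxidizes that unit, and it is then released as formate by MTHFD1L or oxidized to carbon dioxide by ALDH1L2. Formate leaves for the cytosol, and MTHFD1 reattaches it to folate there for purine and thymidylate synthesis. ASNS makes asparagine from aspartate and glutamine. Many of these genes are known targets of the transcription factor ATF4, which is made when amino acids are short or unfolded proteins build up. Dividing cancer cells are known to depend on the mitochondrial arm.

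Library totals ran from 73406825 to 96962135 counts, and the lowest reportable level, 3 counts in a library, was 0.0309 to 0.0409 CPM (counts scaled to library size). Such limits cover counting error only. The labelled cell type was checked against markers. All 8 markers of the prostate luminal line were counted, with a summed level of 4806 to 5541 CPM. Leukocyte markers summed to at most 0.22 CPM. Fibroblast markers summed to 20.8 to 23.3 CPM, nearly all from COL1A1, and endothelial markers to 11.2 to 17.3 CPM, nearly all from VWF, with PECAM1 at 2 counts or fewer and CDH5 at 5 or fewer in every library. VWF fell by 0.38 on the log2 scale between 0 h and 24 h (adjusted p 0.00175 by edgeR), in the direction of most members, and its part in their change was not tested. In bulk RNA, fewer cells of a type and less RNA per cell cannot be told apart.

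A known ATF4 binding element, searched as TGATGNAA on both strands, lay in the promoter windows of 2 of the 7 members with a RefSeq entry (GRCh38.p14; 250 bases before to 50 bases after a start). PSPH, SHMT2 and ALDH1L2 have no entry in the table. Of all 35116 promoter windows of this length 3.62% held these letters, as did a window of 4.46% of all genes. The 2 stretches are shown on the strand of the gene, with the element in capitals. Both genes were among those that fell, as were PHGDH, PSAT1 and MTHFD2, whose windows held no element. The windows of SHMT1 and MTHFD1, which were not called, held none either. Another annotated window of ASNS and another of MTHFD1L also lacked it. The ASNS stretch is at chr7:97872458-97872487 on the minus strand, with the element beginning 68 bases before the start. The MTHFD1L stretch is at chr6:150866346-150866375 on the plus strand, 90 or 129 bases before, or 24 bases after, 3 annotated starts. A match is a description of letters and no evidence of binding.
ASNS: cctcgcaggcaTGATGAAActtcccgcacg
MTHFD1L: gccgccggctcTGATGCAAtcgcgccgggc

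Levels per length were highest for PHGDH and PSAT1, of serine synthesis, and for SHMT2. PHGDH stood at a mean of 1153 TPM (transcript level scaled to the canonical transcript's length and to the library) over the 8 libraries. That was above 99.5% of the genes with a length that passed the filter on low counts. SHMT2 followed at 866 TPM and PSAT1 at 653 TPM. MTHFD2 (148 TPM), PSPH (121 TPM) and MTHFD1 (92.2 TPM) were intermediate, and SHMT1 (45.6 TPM), MTHFD1L (37.7 TPM) and ASNS (24.6 TPM) were lower. ALDH1L2 was nearly silent at 0.306 TPM, above 14.9% of the genes with a length that passed that filter. Thus in each compartment the levels spanned a wide range, and the mitochondrial serine hydroxymethyltransferase was far above its cytosolic counterpart. The order depends on the length used. With the union of all annotated exons PSAT1 led at 1124 TPM, SHMT2 had 699.6 TPM and PHGDH 403 TPM, because that union is 9187 bases for PHGDH against 1866 in the canonical transcript. The fold changes below do not depend on length.

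**Figure D1:**
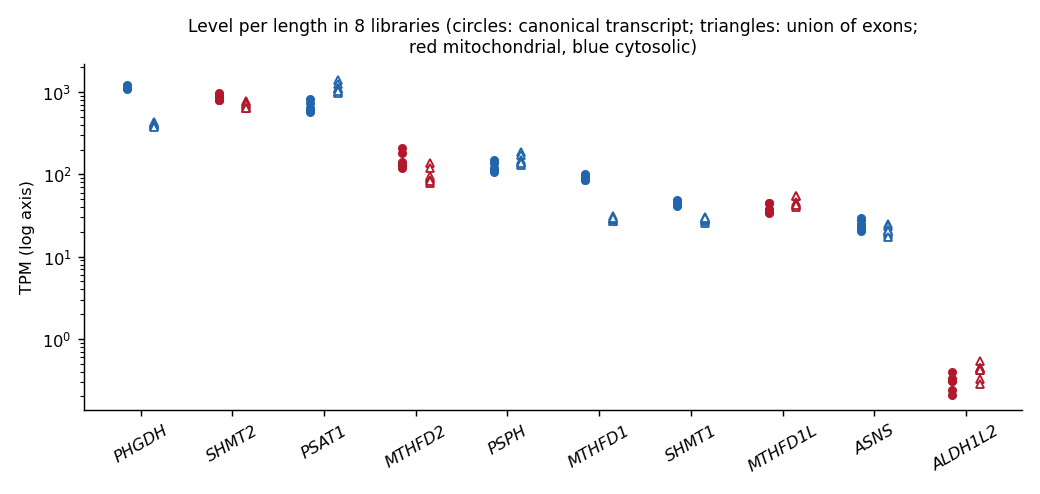
Level of each enzyme transcript in TPM on a log axis, 1 point per library (8 libraries), red for mitochondrial and blue for cytosolic enzymes. Circles use the canonical transcript and open triangles the union of exons. PHGDH, SHMT2 and PSAT1 lie at the top and ALDH1L2 lies far below the rest with either length.

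The comparison of 12 h with 0 h asked which enzymes had changed after the first interval with ASPN. Of the 10 transcripts, 6 fell (PSAT1, PSPH, SHMT2, MTHFD2, MTHFD1L and ASNS) and 0 rose at an adjusted p of at most 0.05 by the edgeR quasi-likelihood test. Over all 21071 genes tested, 6.75% were called lower and 4.85% higher. At an unadjusted p under 0.05, 0 members and 10.6% of all genes were higher, and DESeq2 called 0 higher. The fall took in 3 of the 4 mitochondrial and 3 of the 6 cytosolic members, and none of the 6 reached 1.5-fold, as 1.05% of all genes did. In 7 members every 12 h library was below both 0 h libraries, as in 19.6% of all genes. The median log2 change was -0.27 over the members and -0.00069 over all genes tested. Without the first 0 h replicate the count was 4, because SHMT2 and ASNS no longer passed. Between the 2 time points fitted alone it was 5, without SHMT2.

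The comparison of 24 h with 0 h asked whether the change persisted. It did for the same 6 genes, and PHGDH joined them, so that 7 of 10 had fallen and 0 had risen, with 8.49% of all genes called lower and 7.82% higher. At an unadjusted p under 0.05, 1 member (SHMT1) and 13.3% of all genes were higher, and DESeq2 called 0 members higher. In 7 members every 24 h library was below both 0 h libraries, as in 21.7% of all genes. MTHFD2 alone passed with at least 1.5-fold, against 1.35% of all genes in that direction. The 7 were 3 of the 4 mitochondrial members and 4 of the 6 cytosolic members. Median log2 changes were -0.34 for the members and -0.0031 for all genes. Both comparisons use the same 0 h libraries, so they are not independent of each other.

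The comparison of 24 h with 12 h asked what followed after the first interval. By edgeR 0 of the 10 members passed, with 2.72% of all genes called in either direction. Unadjusted p values were under 0.05 for SHMT2 and MTHFD2, both lower, as for 6.86% of all genes, and DESeq2 called SHMT2. In 3 members (PHGDH, SHMT2 and MTHFD2) every 24 h library was below every 12 h library, which 9.33% of all genes also showed.

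**Figure D2:**
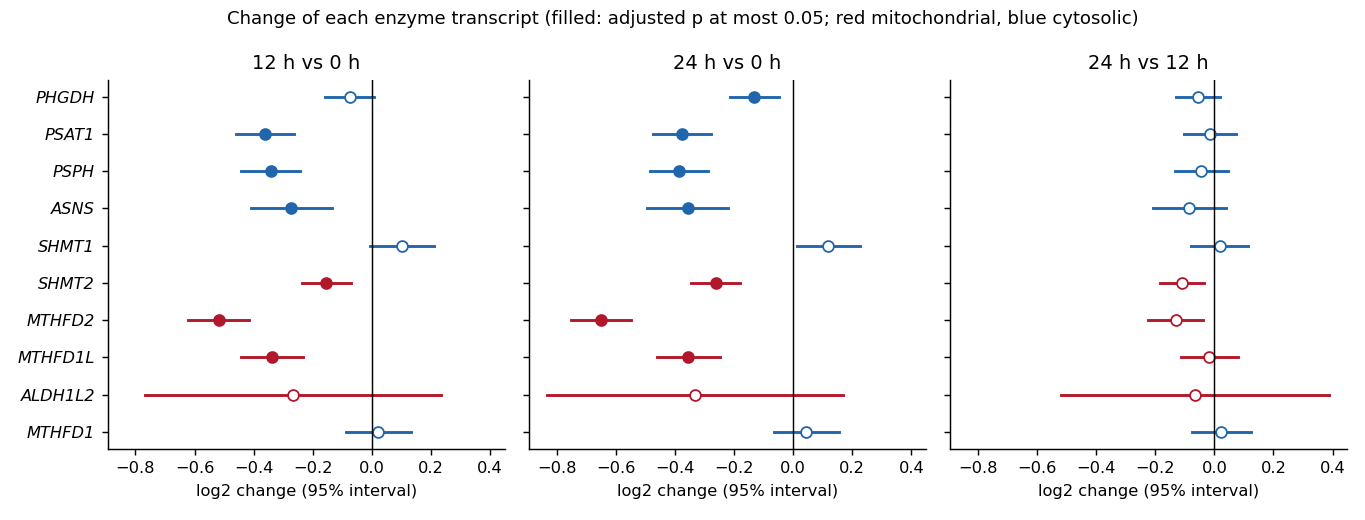
The log2 change of each enzyme transcript in the 3 comparisons, with 95% intervals from the edgeR fit, red for mitochondrial and blue for cytosolic enzymes and filled where the adjusted p was at most 0.05. The filled points, 6 at 12 h and 7 at 24 h, all lie below 0, and 0 points are filled between 24 h and 12 h.

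MTHFD2, the mitochondrial methylenetetrahydrofolate dehydrogenase (ENSG00000065911.13, GRCh38 chr2:74186172-74217565, plus strand), showed the largest change of the 10 members in both comparisons with 0 h. It stood at 449.6 and 394.6 CPM in the 0 h libraries, at 289, 294 and 301 CPM at 12 h, and at 253, 283 and 270.3 CPM at 24 h. Both 0 h libraries were above all 6 later ones, and the 12 h and 24 h groups did not overlap. Means were 422 ± 38.9 CPM (SD, n = 2), 295 ± 6.29 CPM (SD, n = 3) and 269 ± 14.9 CPM (SD, n = 3). MTHFD2 fell by 0.52 on the log2 scale, or 30.2%, at 12 h (SE 0.050, adjusted p 2.74e-08 by edgeR). At 24 h it had fallen by 0.65, or 36.3% (SE 0.050, adjusted p 3.93e-11 by edgeR). Of all genes tested, 6.11% had a lower log2 change at 24 h. From 12 h to 24 h MTHFD2 had a log2 change of -0.13 (adjusted p 0.130 by edgeR).

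SHMT2, the most abundant mitochondrial member (ENSG00000182199.11, chr12:57229573-57234935, plus strand), fell in smaller steps. Its levels were 1018 and 998 CPM at 0 h, 921, 882 and 914 CPM at 12 h, and 832, 856 and 833 CPM at 24 h. The 3 groups did not overlap and were ordered by time. SHMT2 fell by 0.15 on the log2 scale at 12 h (SE 0.040, adjusted p 0.00997 by edgeR) and by 0.26 at 24 h (SE 0.040, adjusted p 1.20e-05 by edgeR), 10.1% and 16.6% lower. The 12 h call did not hold without the first 0 h replicate (adjusted p 0.125 by edgeR), and the change between 12 h and 24 h, -0.11, missed the threshold (adjusted p 0.112 by edgeR).

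MTHFD1L, which releases formate in mitochondria (ENSG00000120254.16, chr6:150865679-151101887, plus strand), reached its lower level by 12 h. It had 75.3 and 75.4 CPM at 0 h, 59.3, 57.7 and 61.9 CPM at 12 h, and 56.2, 61.8 and 58.7 CPM at 24 h. All later libraries were below both 0 h libraries, and those of 12 h and 24 h overlapped. The log2 changes were -0.34 (SE 0.052, adjusted p 3.04e-05 by edgeR) and -0.35 (SE 0.052, adjusted p 5.95e-06 by edgeR), 20.9% and 21.8% lower. Between 12 h and 24 h it was -0.017 (adjusted p 0.925 by edgeR).

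ALDH1L2, the mitochondrial enzyme that oxidizes formyl-folate to carbon dioxide (ENSG00000136010.14, chr12:105019784-105107643, minus strand), was too rare to follow, with 67 to 126 counts a library. It measured 1.43 and 1.13 CPM at 0 h, 0.869, 1.17 and 1.16 CPM at 12 h, and 1.19, 0.765 and 1.12 CPM at 24 h. The groups overlapped. Its 24 h log2 change was -0.33 with a 95% interval of -0.83 to 0.17 (adjusted p 0.427 by edgeR), an interval that holds changes as large as that of MTHFD2. Its exons overlap by 1.38% with WASHC4 on the other strand, which had 30587 counts against 744 for ALDH1L2 over all libraries, and whether counting used strand is not given in the sources used here.

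In serine synthesis, the middle and last steps fell together while the first moved least. PSAT1, the phosphoserine aminotransferase (ENSG00000135069.14, chr9:78297125-78330093, plus strand), stood at 887 and 798 CPM at 0 h, 629, 668 and 671 CPM at 12 h, and 618, 682 and 648 CPM at 24 h. Every later library was below both 0 h libraries. The log2 changes were -0.36 at 12 h (SE 0.048, adjusted p 3.32e-06 by edgeR) and -0.38 at 24 h (SE 0.048, adjusted p 5.68e-07 by edgeR). That is 22.1% and 22.9% lower, with no further change called after 12 h (log2 change -0.014, adjusted p 0.933 by edgeR).

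PSPH, the phosphatase that completes serine synthesis (ENSG00000146733.14, chr7:56011051-56051604, minus strand), had 145 and 135 CPM at 0 h, 108, 109 and 113 CPM at 12 h, and 102, 111 and 107 CPM at 24 h. The 0 h libraries were again above all others, and the later groups overlapped. PSPH fell by 0.34 on the log2 scale at 12 h (SE 0.049, adjusted p 1.02e-05 by edgeR) and by 0.39 at 24 h (SE 0.049, adjusted p 5.22e-07 by edgeR), 21.1% and 23.5% lower.

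PHGDH, which commits the glycolytic intermediate to serine (ENSG00000092621.13, chr1:119648411-119744218, plus strand), had 1079 and 1124 CPM at 0 h, 1068, 1022 and 1046 CPM at 12 h, and 1013, 1019 and 986 CPM at 24 h. The groups did not overlap, but the gaps were small beside the level. The log2 change was -0.075 at 12 h (adjusted p 0.270 by edgeR) and -0.13 at 24 h (SE 0.041, adjusted p 0.0234 by edgeR), 8.68% lower. The 24 h call was lost without the unnumbered 0 h library (adjusted p 0.193 by edgeR) and without each of the 3 24 h libraries in turn (adjusted p 0.0674, 0.0629 and 0.120 by edgeR, for replicates 1, 2 and 3).

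ASNS, asparagine synthetase (ENSG00000070669.17, chr7:97851677-97872542, minus strand), had 34.1 and 32.7 CPM at 0 h, 27.4, 27.0 and 28.7 CPM at 12 h, and 25.4, 28.7 and 24.0 CPM at 24 h. Both 0 h libraries were above all others. ASNS fell by 0.27 on the log2 scale at 12 h (SE 0.067, adjusted p 0.00604 by edgeR) and by 0.36 at 24 h (SE 0.067, adjusted p 0.000207 by edgeR), 17.2% and 21.9% lower. The 12 h call did not hold without the first 0 h replicate (adjusted p 0.139 by edgeR). The level of ASNS is uncertain because 49.3% of its exon bases also belong to the noncoding gene ENSG00000284707 on the same strand, which was given 217 counts against 19260 for ASNS over all libraries.

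The cytosolic one-carbon enzymes passed in neither direction. SHMT1 (ENSG00000176974.20, chr17:18327860-18363563, minus strand), the cytosolic counterpart of SHMT2, had 50.8 and 54.8 CPM at 0 h, 56.7, 55.0 and 58.1 CPM at 12 h, and 56.6, 56.9 and 58.4 CPM at 24 h. All later libraries were above both 0 h libraries, as 17.3% of all genes were at 12 h and 21.5% at 24 h. Its log2 change was 0.10 at 12 h (95% interval -0.0061 to 0.21, adjusted p 0.247 by edgeR) and 0.12 at 24 h (95% interval 0.012 to 0.23, adjusted p 0.131 by edgeR). The 0 h libraries decided this value. Without the unnumbered one the 24 h change was 0.18 and passed (adjusted p 0.0454 by edgeR), and without the first replicate it was 0.060 (adjusted p 0.692 by edgeR). SHMT1 shares 2.81% of its exon bases with SMCR8 on the other strand, which had 45149 counts against 37749.

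MTHFD1, the cytosolic trifunctional enzyme (ENSG00000100714.17, chr14:64388031-64463457, plus strand), had 131 and 146 CPM at 0 h, 132, 153 and 138 CPM at 12 h, and 142, 142 and 146 CPM at 24 h. The groups overlapped throughout. The log2 changes of 0.022 at 12 h (95% interval -0.089 to 0.13, adjusted p 0.869 by edgeR) and 0.045 at 24 h (95% interval -0.066 to 0.16, adjusted p 0.665 by edgeR) exclude, by their intervals, a fall of the size of that of MTHFD2 or MTHFD1L.

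**Figure D3:**
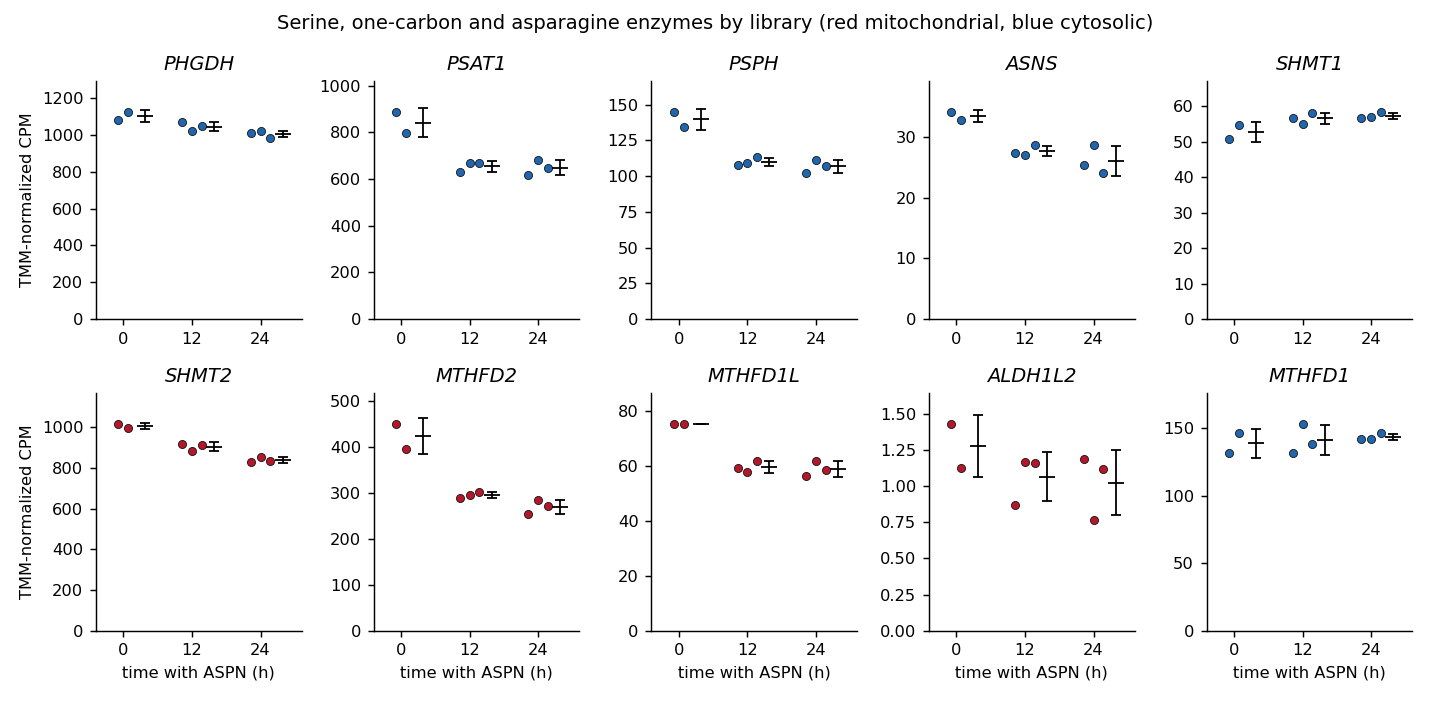
TMM-normalized CPM of the 10 enzymes in each library at 0 h (2 libraries), 12 h and 24 h (3 libraries each), with the mean and SD beside the points, red for mitochondrial and blue for cytosolic enzymes. MTHFD2, MTHFD1L, PSAT1 and PSPH step down between 0 h and 12 h, SHMT2 descends at each time, and SHMT1 and MTHFD1 do not descend.

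Whether the mitochondrial and cytosolic one-carbon enzymes differed in their change was tested by ratios within a library. Such ratios do not depend on how libraries are scaled. The other cytosolic members, PSAT1, PSPH, ASNS and PHGDH, are not in the ratios and had also fallen at 24 h. Their log2 changes were -0.38, -0.39, -0.36 and -0.13. Each of the 3 ratios of a mitochondrial enzyme to the cytosolic enzyme of a like step was lower after 0 h. They were tested over the 3 times with an exact permutation test over the 560 arrangements of the libraries. Its statistic, the between-time sum of squares, stays the same when the 12 h and 24 h groups are exchanged. The smallest possible p of the test is therefore 0.00357, and it says nothing on the order of 12 h and 24 h. P was adjusted over 3 pairs by the Benjamini-Hochberg method. The members, and so the pairs, were chosen with earlier results of these data known, which these p-values do not allow for.

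The ratio of SHMT2 to SHMT1, in counts per kilobase of the canonical transcripts, was 23.5 and 21.3 at 0 h, 19.0, 18.8 and 18.4 at 12 h, and 17.2, 17.6 and 16.7 at 24 h. The 3 groups did not overlap. The mean went from 22.4 ± 1.53 (SD, n = 2) to 18.8 ± 0.295 (SD, n = 3) and 17.2 ± 0.452 (SD, n = 3), 23.3% lower at 24 h than at 0 h (log2 difference -0.38, exact permutation p = 0.00357, adjusted 0.0107).

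The ratio of MTHFD2 to MTHFD1 was 2.45 and 1.93 at 0 h, 1.57, 1.37 and 1.57 at 12 h, and 1.28, 1.43 and 1.33 at 24 h. The 0 h libraries were above all later ones, and the later groups overlapped. The log2 difference between 24 h and 0 h was -0.70, or 38.2% lower (exact permutation p = 0.00714, adjusted 0.0107). The ratio of MTHFD1L to MTHFD1 was 0.524 and 0.470 at 0 h, 0.412, 0.344 and 0.410 at 12 h, and 0.362, 0.398 and 0.367 at 24 h. It was 24.4% lower at 24 h, a log2 difference of -0.40 (exact permutation p = 0.0286, adjusted 0.0286). This last call did not hold when 1 library was left out in 6 of 8 cases, with an adjusted exact permutation p of 0.229 without the first 0 h replicate, 0.114 without the unnumbered 0 h library, 0.0952 without the first or the third 12 h replicate, 0.0857 without the first and 0.0762 without the third 24 h replicate. MTHFD1 is the denominator of both ratios.

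Summed per length, the 4 mitochondrial enzymes had 9.66 and 8.43 times the level of SHMT1 and MTHFD1 at 0 h, 7.94, 7.01 and 7.65 times at 12 h, and 6.82, 7.10 and 6.70 times at 24 h. The later libraries were all below the 0 h libraries. Between the mean log2 ratios of 24 h and 0 h the difference was -0.39, or 23.9% lower, with no test since the ratio sums chosen members. SHMT2 made up 79.2% to 80.6% of the mitochondrial sum at 0 h and 82.8% to 83.9% later. The mitochondrial transcripts stayed in excess in every library.

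**Figure D4:**
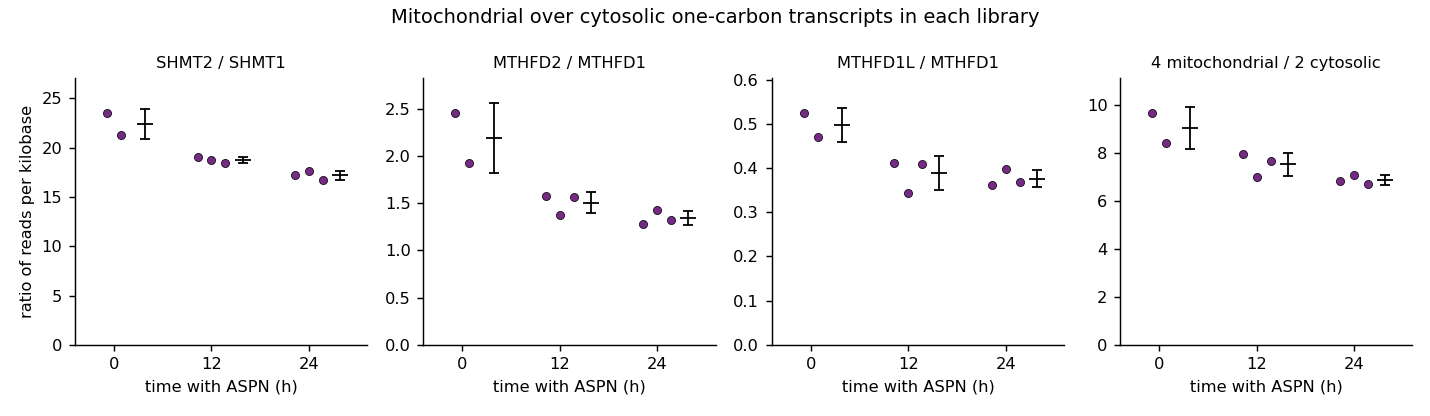
Ratios of mitochondrial to cytosolic one-carbon transcripts (counts per kilobase) in each library by time, with mean and SD. The SHMT2 to SHMT1 ratio descends from 23.5 and 21.3 at 0 h to between 16.7 and 17.6 at 24 h, and the other 3 panels also have both 0 h libraries on top.

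Across the 8 libraries the log2 CPM of PSPH had a Pearson r of 0.993 with that of MTHFD2 and 0.989 with that of PSAT1, among the closest pairs of members. PHGDH had a lower r of 0.67 with PSAT1 and 0.76 with PSPH, and SHMT1 had -0.85 with PSAT1. These are descriptions over 8 libraries that share the time series. By the same measure, the 5 genes closest to the mean profile of the 4 mitochondrial members, among 13455 well-counted genes, were PBRM1 (r 0.993), GFPT1 (r 0.991), FAM114A1 (r 0.991), TMEM41B (r 0.990) and ERO1B (r 0.989). This list rests on ALDH1L2, which had an r of 0.37 to 0.50 with the other 3 mitochondrial members. With the profile of those 3 alone, 0 of these 5 genes were among the 5 closest, although their r was still 0.96 to 0.98.

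Genes around these enzymes were read in the same fit by function, at 24 h against 0 h, beside the 8.49% of all genes called lower and the 7.82% called higher. In the list of ATF4 and the kinases and stress genes around it, 9 of 13 genes fell and 1, the amino acid sensing kinase EIF2AK4, rose (log2 change 0.19, adjusted p 0.00285 by edgeR), with a median log2 change of -0.39. ATF4 itself averaged 1342 ± 9.74 CPM at 0 h (SD, n = 2) and 1091 ± 15.3 CPM at 24 h (SD, n = 3), and fell by 0.30 on the log2 scale (adjusted p 5.08e-06 by edgeR). DDIT3, the stress-induced factor CHOP, had 81.8 and 75.7 CPM at 0 h, 62.0, 51.4 and 57.5 CPM at 12 h and 38.5, 41.3 and 38.6 CPM at 24 h. Its groups did not overlap, and its log2 change was -0.996 (adjusted p 2.33e-13 by edgeR). TRIB3, a pseudokinase induced by ATF4, and SESN2, a leucine sensor, had log2 changes of -0.80 and -0.75 (adjusted p 9.70e-11 and 4.18e-12 by edgeR). EIF2AK4 did not pass without the first 0 h replicate (adjusted p 0.0801 by edgeR).

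Among genes that transport or interconvert aspartate, glutamine and serine, 4 of 14 fell and 0 rose, with 2 higher at an unadjusted p under 0.05 and 0 called higher by DESeq2. The 4 were the transporters SLC1A4 (log2 change -0.53), which carries serine and alanine, and SLC1A5 (-0.50), which carries glutamine, the aspartate aminotransferase GOT1 (-0.51) and the glutamate dehydrogenase GLUD1 (-0.30). Their adjusted p values were 8.78e-09, 6.91e-10, 1.03e-09 and 1.33e-05 by edgeR. GOT1 had 146 and 145 CPM at 0 h and 98.3 to 106 CPM at 24 h. The list's median was -0.044. Besides these 4, the glutamate and aspartate carrier SLC1A3, named after its values were seen, had the largest log2 change of the list, 0.65, on 54 to 135 counts a library (adjusted p 0.0876 by edgeR), and the other 9 genes lay between -0.11 and 0.10.

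Genes that use serine and glycine were mixed, with 3 of 14 lower, 2 higher and a median of -0.069. CTH, which makes cysteine from serine-derived cystathionine, went from 71.0 and 62.4 CPM at 0 h to 43.9, 45.0 and 44.5 CPM at 12 h and 35.2, 38.5 and 35.8 CPM at 24 h. Its groups did not overlap, and its log2 change was -0.87 (adjusted p 1.55e-12 by edgeR). The demethylating enzyme DMGDH and the sphingolipid enzyme SPTLC2, which consumes serine, fell by 0.79 and 0.22 on the log2 scale (adjusted p 2.38e-05 and 0.00168 by edgeR). GLDC, the glycine-cleaving decarboxylase, and CBS, which joins serine to homocysteine, were higher, with log2 changes of 0.28 and 0.23 (adjusted p 0.00955 and 0.00609 by edgeR). Neither passed without the first 0 h replicate (adjusted p 0.152 and 0.127 by edgeR).

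In folate supply, of 13 genes 0 were lower and 5 higher (SLC19A1, SLC46A1, FPGS, FOLH1 and MTFMT), with 1 lower at an unadjusted p under 0.05 and 0 called lower by DESeq2, and the median was 0.13. The folate carrier SLC19A1 had 41.4 and 50.1 CPM at 0 h, 54.5, 55.6 and 55.8 CPM at 12 h and 56.5, 57.3 and 54.7 CPM at 24 h. Both 0 h libraries were below the rest, with a log2 change of 0.30 at 24 h (adjusted p 0.00054 by edgeR). SLC46A1, the proton-coupled folate transporter, and FPGS, which traps folate in cells as polyglutamates, had log2 changes of 0.29 and 0.18 (adjusted p 0.00219 and 0.00969 by edgeR). FOLH1, the folate hydrolase known as prostate-specific membrane antigen, had 1859 and 1740 CPM at 0 h, 1660, 1745 and 1693 CPM at 12 h and 1948, 1985 and 1978 CPM at 24 h, a log2 change of 0.13 from 0 h (adjusted p 0.0255 by edgeR). Each of the 5 calls depended on the libraries kept. FPGS did not pass without the first 24 h replicate (adjusted p 0.0629 by edgeR). FOLH1 did not pass without 24 h replicate 1, 2 or 3 (adjusted p 0.0632, 0.0930 and 0.0911 by edgeR). MTFMT did not pass with no low-count filter (adjusted p 0.0545 by edgeR) or without the third 12 h replicate (adjusted p 0.0512 by edgeR). Nor did it pass without 24 h replicate 1 or 3 (adjusted p 0.161 and 0.103 by edgeR). Without the first 0 h replicate the log2 change was 0.16 for SLC19A1 and 0.19 for SLC46A1, both under the values above by over 1.5 times. The adjusted p was then 0.129 for SLC19A1, 0.169 for SLC46A1, 0.206 for FPGS and 0.222 for MTFMT, and without the unnumbered 0 h library it was 0.225 for FOLH1 (all by edgeR). The other isozymes did not pass: MTHFD2L, the mitochondrial paralog of MTHFD2, had a log2 change of 0.073 (adjusted p 0.617 by edgeR), and ALDH1L1, the cytosolic counterpart of ALDH1L2, 0.44 on 47 to 121 counts a library (adjusted p 0.336 by edgeR).

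In purine and thymidylate synthesis, which consumes the carbon units, 0 of 12 genes fell and 1, the adenylosuccinate synthetase ADSS1, was higher (log2 change 0.29, adjusted p 0.0205 by edgeR). In that list 1 gene was lower at an unadjusted p under 0.05, DESeq2 called 0 lower, and the median was 0.060. ATIC, IMPDH1 and thymidylate synthase TYMS had log2 changes of 0.095, 0.11 and 0.080 (adjusted p 0.148, 0.153 and 0.546 by edgeR). ADSS1 did not pass without the second or the third 24 h replicate (adjusted p 0.0621 in each by edgeR). Its log2 change was 0.27 without the first 0 h replicate and 0.31 without the unnumbered 0 h library. In the methionine cycle 3 of 10 genes were lower and 0 higher, with 1 higher at an unadjusted p under 0.05, and a median of -0.020. Of the same 10 genes DESeq2 called 2 lower and 1 higher. The 3 called lower by edgeR were GNMT (log2 change -0.40), MAT2B (-0.17) and BHMT (-1.69). Their adjusted p values were 0.0125, 0.0370 and 0.0262 by edgeR. BHMT had 59 and 20 counts at 0 h and 12, 13 and 13 at 24 h, and did not pass without the first 0 h replicate (log2 change -0.90, adjusted p 0.590 by edgeR). Without the unnumbered 0 h library the log2 change was -0.28 for GNMT and -0.15 for MAT2B. GNMT did not pass without the first 24 h replicate (adjusted p 0.0845 by edgeR). MAT2B did not pass with no low-count filter (adjusted p 0.0606 by edgeR) or without the third 12 h replicate (adjusted p 0.0569 by edgeR). It also did not pass without 24 h replicate 1, 2 or 3 (adjusted p 0.0907, 0.0962 and 0.104 by edgeR).

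**Figure D5:**
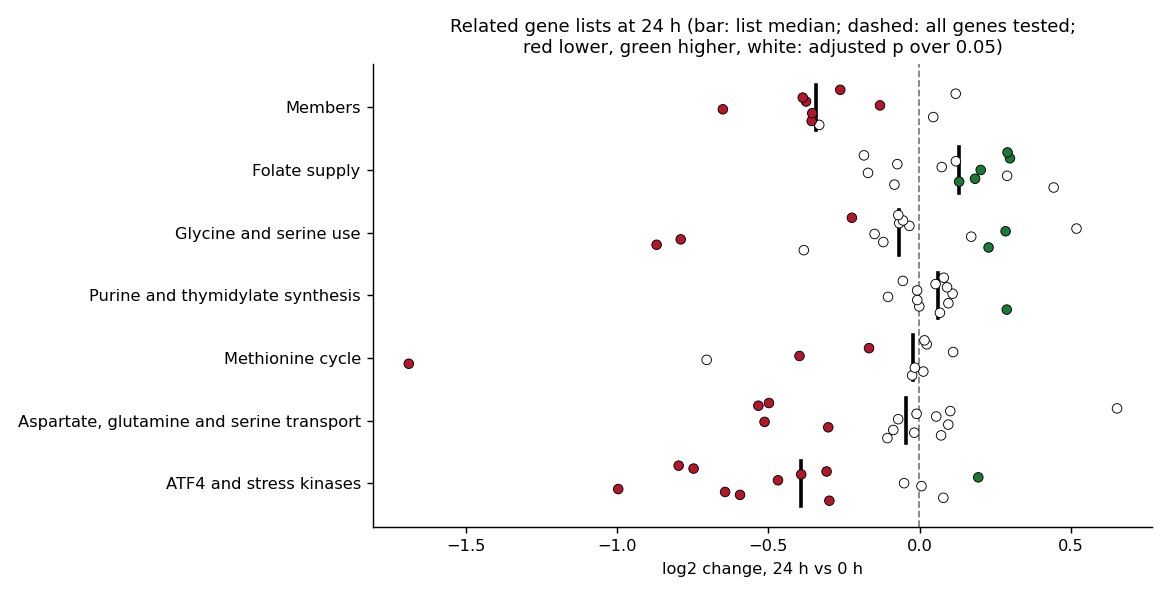
The log2 change at 24 h against 0 h of each tested gene of the members and 6 related lists, with the median of each list as a bar and that of all genes tested as a dashed line. The members (median -0.34) and the ATF4 list (median -0.39) lie mostly below 0, and folate supply has a median of 0.13.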

How the data were processed

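RNA was sequenced from LNCaP cells at 0 h (2 libraries), 12 h and 24 h (3 each) with ASPN. The authors trimmed reads with Cutadapt, aligned them to GRCh38 with STAR and deposited raw featureCounts counts per GENCODE gene. They left out 1 time-0 library for quality. Strand and multimapping settings are not given in the sources used here. One 0 h library has no replicate number here, because its column name matches neither label. The labels call the libraries biological replicates but name no separate cultures, so p-values measure the spread between these libraries, which may be partly technical.

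Counts were fitted over all libraries with 1 term per time in edgeR 4.0.16 (R 4.3.3, limma 3.58.1), with TMM scaling, filterByExpr and the robust quasi-likelihood test, and p-values were adjusted by Benjamini-Hochberg over 21071 genes. Calls used an adjusted p of 0.05, and separately 1.5-fold. SE was the log2 change over the square root of F. The biological coefficient of variation was 5.59%. No pair of replicates agreed within sampling noise (chi-square per degree of freedom 5.32 to 15.2). Ratios and TPM used GENCODE 44 transcript lengths. Correlations used log2 CPM with a pseudocount of 0.5. The fit was tested on simulated data.

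Alternatives were RLE and upper-quartile scaling, other filters, DESeq2 1.42.0, the compared times alone, protein-coding genes alone, an adjusted p of 0.01, a replicate block, and leaving out each library. Levels per union of exons, a replicate block over all libraries and a profile without ALDH1L2 were added after seeing the data. Members and lists were chosen with earlier results of these data known. Named genes were the members, the 3 of each list with the smallest p at 24 h against 0 h, ATF4, ALDH1L1, MTHFD2L, FOLH1, TYMS and the 5 closest profiles. One further gene is not reported here. EIF2AK4, GLUD1, GLDC, CBS, MTFMT, SLC1A3 and VWF were named after their values were seen. Protein sequences were not used here.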

Additional observations from a re-analysis of the deposited data

How the results depend on the processing

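The 12 h and 24 h counts of members called against 0 h stayed within 1.5 times of 6 and 7 under every alternative run. Leaving out 1 library gave 4 to 6 at 12 h, 6 to 7 at 24 h and 0 between 24 h and 12 h. Between 24 h and 12 h, DESeq2 called 1 member (SHMT2, log2 change -0.11, adjusted p 0.0143). The replicate block on the 12 h and 24 h libraries alone also called 1 (MTHFD2, log2 change -0.14, adjusted p 0.0274 by edgeR). The shared numbers of the 12 h and 24 h libraries were not used as pairs, because same-numbered deviations had correlations of 0.119, 0.0301 and 0.0286 over 13464 genes. A replicate block over all 8 libraries, added after seeing the data, needs a number for the unnumbered 0 h library. Taken as number 3, as in its column name, or as number 2, the remaining label, the block called 6 members at 12 h, 6 at 24 h and 0 between 24 h and 12 h. The call lost at 24 h was PHGDH (adjusted p 0.0820 and 0.103 by edgeR), and with number 3 MTHFD1 was -0.0071 at 12 h. Without 1 library the log2 difference between 24 h and 0 h was -0.45 to -0.31 for SHMT2 to SHMT1, -0.87 to -0.52 for MTHFD2 to MTHFD1, -0.48 to -0.33 for MTHFD1L to MTHFD1 and -0.49 to -0.29 for the summed ratio. The summed ratio, -0.39, was -0.66 without SHMT2. Of 517 member values under alternatives, 12 changed sign, none of them called and all but that of MTHFD1 under the block by leaving out 1 library. Ranges over the libraries left out were, for MTHFD1, -0.056 to 0.11 at 12 h, -0.037 to 0.13 at 24 h and -0.029 to 0.088 between 24 h and 12 h. Between 24 h and 12 h they were -0.0027 to 0.036 for SHMT1, -0.19 to 0.11 for ALDH1L2, -0.058 to 0.020 for PSAT1 and -0.061 to 0.016 for MTHFD1L. Of 28 related genes at 24 h, MTHFD2L ranged from -0.018 to 0.18 and no other changed sign. Of the 473 values of related genes, 44 lost the call. The cause was not tested. ALDH1L2 is limited by depth.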
